A study of Mus musculus with 16 samples.

Results

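Fc receptors bind the constant part of antibodies and let leukocytes respond to antibody-coated targets. In the mouse, Fcgr1, Fcgr3 and Fcgr4 encode the ligand-binding chains of the activating IgG receptors FcγRI, FcγRIII and FcγRIV. Fcer1g encodes the common γ chain, the adaptor that these chains need for stable surface expression and for signalling through its immunoreceptor tyrosine-based activation motif (ITAM). Fcgr2b encodes FcγRIIB, the inhibitory IgG receptor, which carries an immunoreceptor tyrosine-based inhibitory motif (ITIM) in its own tail. Fcgrt encodes the heavy chain of the neonatal Fc receptor, which pairs with β2-microglobulin and recycles IgG inside cells. Neutrophils are known to use the activating receptors for phagocytosis and the oxidative burst.

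These 6 genes were taken by symbol from a table of read counts for 23337 genes in mouse blood neutrophils, and all 6 were found in it. Of the 6, 4 (Fcgr3, Fcgr2b, Fcgr4 and Fcer1g) passed the filter on low counts and were tested together with the other genes that passed, 9213 in all. Fcgr1 was counted in 3 of the 16 libraries and Fcgrt in none.

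The 16 libraries came from 8-week-old mice on the C57BL/6J background (strain labelled C57/Bl6). The lymphotoxin β receptor gene Ltbr was floxed in all of them. LTβRΔN mice (Ltbr fl/fl × Mrp8-Cre) also carried a transgene for Cre and EGFP, driven by S100A8 regulatory sequences. Such a transgene is known to be active in neutrophils and in part of the other myeloid cells. By the study's account, loss of the receptor in these mice was limited to neutrophils. Controls were Ltbr fl/fl littermates without Cre. Neutrophils were isolated from blood by magnetic negative selection. The 4 groups are named as labelled: unstimulated control (n = 3), stimulated control (n = 4), unstimulated LTβRΔN (n = 4) and stimulated LTβRΔN (n = 5). By the treatment protocol and the study's own account, the cells were cultured for 2 h with TNF (100 ng/ml), IL-6 (50 ng/ml) and GM-CSF (100 ng/ml), and the treatment compared was the presence or absence of the LTβR ligand LIGHT (500 ng/ml). The series description words the contrast as culture with or without cytokines, and the labels name no agent, so the groups are called stimulated and unstimulated here. The comparisons ask how Fc receptor transcripts differed with the treatment label in each genotype, and with the genotype under each label.

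Each library is named here by the number in its title. Totals ran from 1094335 to 11932653 counts per library. Ltbr, the targeted gene, was at 116 ± 33.0 counts per 1000000 (CPM; SD, n = 3) and 109 ± 27.7 CPM (n = 4) in unstimulated and stimulated controls, and at 8.21 ± 3.14 (n = 4) and 8.65 ± 6.74 (n = 5) in the corresponding LTβRΔN groups. No LTβRΔN library reached the level of any control library. The markers of neutrophils (7 of 8 in the table) summed to between 44990 and 75450 CPM in every library, and those of platelets to at most 194 CPM, in library 82. The titles also carry an index, S520 or S521. All stimulated libraries were S521, and of the unstimulated libraries only library 73, a control, was S521. In LTβRΔN neutrophils the treatment label and the index therefore cannot be told apart. Whether libraries of a group came from separate mice is not stated, so p-values measure the spread between these libraries, which may be technical. In bulk RNA, fewer cells with a transcript and less transcript per cell cannot be told apart.

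The ITAM of the activating adaptor and the ITIM of the inhibitory receptor's tail are shown as coding sequence, 5′ to 3′, from the GENCODE annotation of GRCm38 (mm10). Capitals mark the tyrosine codons and the leucine codons that follow them 3 positions later. The ITAM of Fcer1g lies in codons 65 to 79 of 86 and spans 2 exons (chr1:171229889-171230072, minus strand). The ITIM of Fcgr2b lies in codons 317 to 322 of 340 within 1 exon (chr1:170961071-170961088, minus strand). The letters of the ITAM matched only in Fcer1g among the 6 coding sequences. The shorter ITIM pattern (a tyrosine with a matching residue on each side) does not set Fcgr2b apart: it also matched at 3 places in Fcgr1 and at 1 each in Fcer1g (codons 41 to 46), Fcgr4 and Fcgrt, and a match is not in itself a working motif.
Fcer1g ITAM: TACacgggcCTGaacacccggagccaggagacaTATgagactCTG
Fcgr2b ITIM: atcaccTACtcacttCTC

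Of the 6 genes, 4 lie on chromosome 1: Fcgr2b at chr1:170958617-170976547, Fcgr4 at chr1:171018920-171029761, Fcgr3 at chr1:171051174-171064935 and Fcer1g at chr1:171229572-171234365. Fcgr4 is on the plus strand and the other 3 are on the minus strand. Fcgr1 lies at chr3:96282909-96293969 and Fcgrt at chr7:45092990-45103851, both on the minus strand.

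Fcgr2b and Fcgr3 encode closely related extracellular domains. Their coding sequences were identical at 684 of 782 aligned bases (87.5%), with an unbroken run of 129 bases in common, whereas Fcgr3 and Fcgr4 were identical at 68.1%. Gap positions (257 and 104) are left out of these shares. By the same measure Fcgr2b and Fcer1g were identical at 84.4% and Fcgr3 and Fcgrt at 68.2%, so the share alone does not show relatedness. The common run is printed in capitals with 10 bases on each side, because a read that lies wholly within it cannot be given to one gene or the other. It spans 2 exons in Fcgr3 (chr1:171054157-171057802) and in Fcgr2b (chr1:170966664-170968091), minus strand.
Fcgr3: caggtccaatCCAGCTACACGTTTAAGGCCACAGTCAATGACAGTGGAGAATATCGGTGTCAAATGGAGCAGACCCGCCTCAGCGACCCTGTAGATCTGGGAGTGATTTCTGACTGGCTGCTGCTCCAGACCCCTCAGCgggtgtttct
Fcgr2b: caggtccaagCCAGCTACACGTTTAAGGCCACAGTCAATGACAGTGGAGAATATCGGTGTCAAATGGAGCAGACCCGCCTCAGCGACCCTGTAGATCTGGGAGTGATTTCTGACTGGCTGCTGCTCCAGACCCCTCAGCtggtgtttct
Of all stretches of 50 bases in the transcripts of Fcgr2b, 2.92% also occurred in Fcgr3, and 9.58% of those of Fcgr3 occurred in Fcgr2b, some of them outside the printed run. No other pair of the 6 genes shared a stretch of that length.

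Per kilobase of exon, the adaptor was the most abundant of the 6 transcripts and the inhibitory receptor the least abundant of the 4 tested. In unstimulated controls the level per kilobase was 1813 ± 79.8 CPM per kb for Fcer1g, 713 ± 39.9 for Fcgr3, 117 ± 19.0 for Fcgr4 and 1.22 ± 0.741 for Fcgr2b (SD, n = 3). In stimulated controls it was 1926 ± 124, 1169 ± 42.8, 116 ± 26.4 and 5.20 ± 1.52 CPM per kb in the same order (n = 4). The order was the same in the LTβRΔN groups, and no 2 neighbours in it overlapped in any group.

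Fcgr3, the activating low-affinity receptor, rose with the stimulated label in both genotypes. In unstimulated controls it stood at 1307, 1169 and 1239 CPM in libraries 71, 72 and 73. In stimulated controls it stood at 1965, 2079, 1966 and 2106 CPM in libraries 80 to 83. Every stimulated control library lay above every unstimulated one. The means were 1238 ± 69.3 (n = 3) and 2029 ± 74.2 CPM (n = 4), a log2 fold change of 0.71 (SE 0.11) or 1.64-fold, with an adjusted p of 8.21e-05 in edgeR's quasi-likelihood test. An exact two-sided permutation test of the mean CPM gave p = 0.0286, the smallest that 4 against 3 libraries allow.

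In LTβRΔN neutrophils the pattern was alike. Unstimulated libraries 67 to 70 held 1402, 1168, 1340 and 1506 CPM of Fcgr3. Stimulated libraries 75 to 79 held 1996, 1934, 2050, 2182 and 2242 CPM. The groups did not overlap, and the means were 1354 ± 142 (n = 4) and 2081 ± 128 CPM (n = 5). The log2 fold change was 0.62 (SE 0.09), or 1.54-fold, with an adjusted p of 8.95e-05 in edgeR's test and an exact two-sided permutation p of 0.00794, the smallest that 5 against 4 libraries allow. Within index S521, the unstimulated control library 73 (1239 CPM) lay below the 4 stimulated control libraries (1965 to 2106 CPM). With the index as a covariate the log2 fold change was 0.71 in controls (adjusted p = 0.0192 in edgeR). It was 0.62 in LTβRΔN neutrophils, where the call was lost (adjusted p = 0.304 in edgeR). In that fit the index effect comes only from unstimulated control library 73 against libraries 71 and 72. The fit therefore cannot separate the index from the label in LTβRΔN neutrophils.

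Fcgr2b, the inhibitory receptor, was low and rose with the stimulated label in control neutrophils. Unstimulated control libraries 71, 72 and 73 held 6.0, 3.40 and 11.8 CPM, from 79, 30 and 84 reads. Stimulated control libraries 80 to 83 held 41.7, 22.3, 32.1 and 24.4 CPM, from 309, 94, 324 and 196 reads. The groups did not overlap. The means were 7.06 ± 4.29 (n = 3) and 30.1 ± 8.79 CPM (n = 4), a log2 fold change of 2.10 (SE 0.49), or 4.29-fold, with an adjusted p of 0.0118 in edgeR's test. The exact two-sided permutation p was 0.0286.

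In LTβRΔN neutrophils the change of Fcgr2b did not pass the test. Unstimulated libraries 67 to 70 stood within 9.89 to 12.1 CPM, from 13 to 142 reads. Stimulated libraries 75 to 79 held 16.2, 34.5, 38.0, 7.63 and 27.9 CPM, so that 4 lay above all unstimulated libraries and library 78 below all of them. The means were 10.6 ± 0.985 (n = 4) and 24.8 ± 12.7 CPM (n = 5), and the log2 fold change was 1.22 (SE 0.43, 95% interval 0.34 to 2.11) with an adjusted p of 0.150 in edgeR's test. The exact permutation p was 0.0873. Without library 78 the log2 fold change was 1.45 and passed (adjusted p = 0.0362).

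The call of Fcgr2b in controls also rested on few libraries. It was lost without library 71 (log2 fold change 2.00, adjusted p = 0.0798 in edgeR), without library 72 (1.76, adjusted p = 0.116) and with the index as a covariate (1.36, adjusted p = 0.815). With that covariate the log2 fold change in LTβRΔN neutrophils was -0.09 (adjusted p = 0.9999 in edgeR). This value takes its index effect from library 73 against libraries 71 and 72 alone. Within index S521, library 73 (11.8 CPM) lay below all 4 stimulated control libraries (22.3 to 41.7 CPM). The part of reads from the sequence in common with Fcgr3 was not tested.

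B cells express Fcgr2b strongly, so their markers are given beside it. The B cell markers Cd79b, Ms4a1, Pax5 and Fcrla were at 0 in all 16 libraries. Another marker, Cd79a, was counted in 5 libraries, with 1.6 CPM in library 68 as its highest level and 1.22 CPM in library 80, which held the most Fcgr2b. In the 5 stimulated LTβRΔN libraries none of these markers was counted. Fcrl1, an Fc receptor-like gene known from B cells, was by contrast counted in every library, at 23.8 to 72.9 CPM, with its highest level also in library 80. The part of B cells in the Fcgr2b reads was not tested.

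Of the 4 tested genes, 2 (Fcgr3 and Fcgr2b) were thus called higher in stimulated than in unstimulated controls and 1 (Fcgr3) in LTβRΔN neutrophils, and none was called lower. Over all genes tested, 3.48% were called in controls (2.82% higher) and 3.73% in LTβRΔN neutrophils (2.98% higher). The Fc receptor genes were chosen with earlier results of these data known, so these counts are descriptions.

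**Figure D1:**
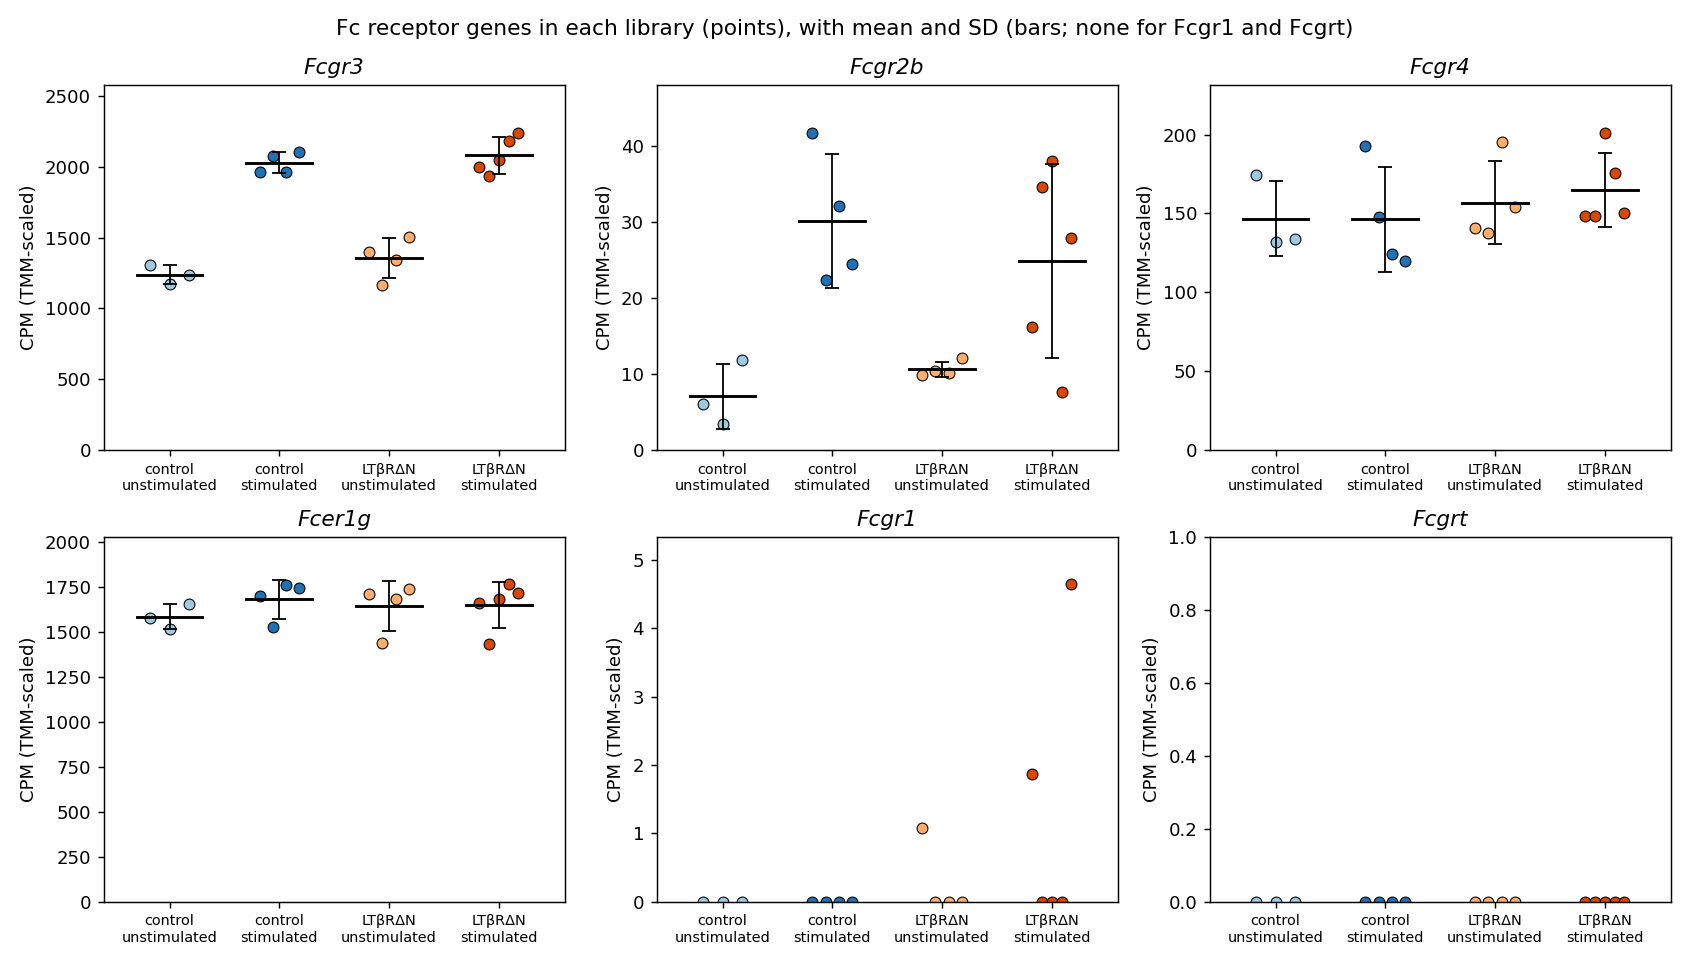
Level of each of the 6 Fc receptor genes in CPM scaled by trimmed mean of M values (vertical axes, from 0), with 1 point per library in the 4 groups; horizontal lines are means and whiskers SDs, omitted for Fcgr1 and Fcgrt. Fcgr3 separates stimulated from unstimulated libraries in both genotypes, Fcgr2b separates them in controls but not in LTβRΔN neutrophils, and Fcgr4 and Fcer1g overlap in all groups.

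Fcgr4, the chain of the activating receptor FcγRIV, showed no change that passed the test. It stood at 147 ± 23.8 CPM in unstimulated controls (n = 3, 132 to 174) and at 146 ± 33.2 in stimulated controls (n = 4, 120 to 193). In LTβRΔN neutrophils it stood at 157 ± 26.4 (n = 4, 138 to 195) and 165 ± 23.5 CPM (n = 5, 148 to 201). The groups overlapped throughout. The log2 fold change was -0.01 in controls (95% interval -0.39 to 0.37, adjusted p = 0.997 in edgeR) and 0.07 in LTβRΔN neutrophils (-0.28 to 0.41, adjusted p = 0.949). The intervals leave out a change as large as that of Fcgr3 in each genotype.

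Fcer1g, the adaptor, varied little between libraries. It was at 1585 ± 69.8 CPM in unstimulated controls (n = 3, 1518 to 1657) and 1683 ± 108 in stimulated controls (n = 4, 1525 to 1761). In LTβRΔN neutrophils it was at 1644 ± 137 (n = 4, 1441 to 1740) and 1652 ± 127 CPM (n = 5, 1435 to 1765). The log2 fold change was 0.09 in controls (95% interval -0.14 to 0.31, adjusted p = 0.911 in edgeR) and 0.01 in LTβRΔN neutrophils (-0.19 to 0.20, adjusted p = 0.995). The direction depended on the scaling. With library totals alone, Fcer1g was lower in all stimulated than in all unstimulated libraries, with a difference of -185.0 CPM in controls (exact permutation p = 0.0286) and -201 CPM in LTβRΔN neutrophils (exact p = 0.00794). That scaling moved the median log2 fold change of all genes tested from -0.02 to -0.27 and from -0.03 to -0.21. Relative to that median, Fcer1g stood at 0.11 and 0.03 under it, and Fcgr3 at 0.74 and 0.65.

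**Figure D2:**
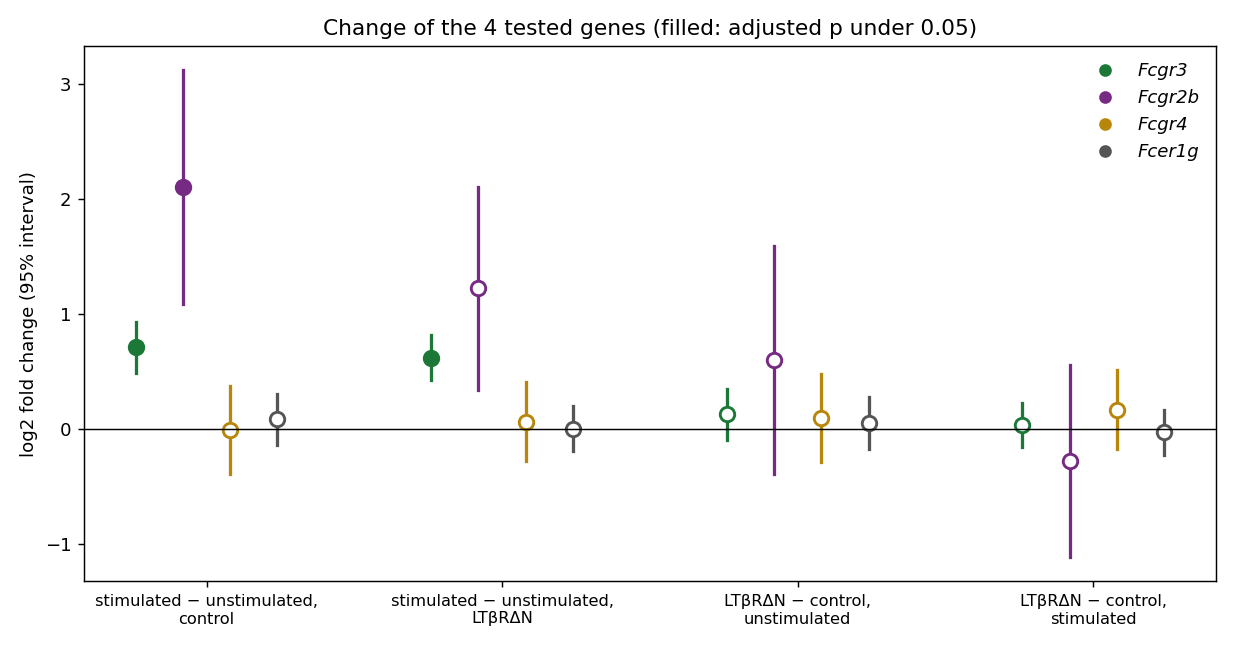
Log2 fold change of the 4 tested genes (vertical axis) in the treatment comparison within each genotype and the genotype comparison under each label (horizontal axis), with 95% intervals from edgeR; filled points passed an adjusted p of 0.05. The filled points are Fcgr3 in both treatment comparisons and Fcgr2b in controls, and all genotype intervals include 0.

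Ratios of read counts within a library do not depend on scaling and place the receptor chain against its adaptor. In unstimulated controls the ratio of Fcgr3 to Fcer1g was 0.829, 0.770 and 0.748 in libraries 71 to 73. In stimulated controls it was 1.16, 1.36, 1.12 and 1.21 in libraries 80 to 83. In LTβRΔN neutrophils it ran from 0.795 to 0.866 over the 4 unstimulated libraries and from 1.20 to 1.35 over the 5 stimulated ones. Unstimulated libraries thus held fewer Fcgr3 than Fcer1g reads and stimulated libraries more, in 16 of 16 libraries. Per kilobase, the ratio was 0.394 ± 0.0210 (n = 3) in unstimulated and 0.609 ± 0.0545 (n = 4) in stimulated controls, and 0.414 ± 0.0152 (n = 4) and 0.635 ± 0.0317 (n = 5) in LTβRΔN neutrophils, so the adaptor was the more abundant transcript in every group.

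The balance between the activating receptors also differed with the label. The ratio of Fcgr3 to Fcgr4 reads ran from 7.50 to 9.26 in unstimulated and from 10.2 to 17.5 in stimulated controls. In LTβRΔN neutrophils it ran from 6.87 to 9.96 and from 10.2 to 14.9, again without overlap. The ratio of Fcgr4 to its adaptor, by contrast, overlapped, at 0.0928 ± 0.0157 and 0.0874 ± 0.0214 in controls and 0.0955 ± 0.0146 and 0.0999 ± 0.0129 in LTβRΔN neutrophils.

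Relative to the inhibitory receptor, the activating receptors were lower in stimulated than in unstimulated controls. The ratio of Fcgr3 to Fcgr2b reads was 218, 344 and 105 in unstimulated control libraries 71 to 73, from 79, 30 and 84 Fcgr2b reads. It was 47.1, 93.3, 61.3 and 86.1 in stimulated control libraries 80 to 83, below all 3. Library 73, the only unstimulated library of index S521, stood closest to the stimulated ones. In LTβRΔN neutrophils the ratio ran from 112 to 142 in unstimulated libraries, and stimulated libraries 75 to 79 stood at 123, 56.0, 53.9, 286 and 80.4. There 3 stimulated libraries lay below the unstimulated range, library 75 inside it and library 78 above it. The ratio of Fcgr4 to Fcgr2b ran from 11.4 to 38.9 in unstimulated and from 3.88 to 6.62 in stimulated controls, without overlap. In LTβRΔN neutrophils it ran from 12.7 to 19.2 and from 4.30 to 23.1, with overlap. All these ratios are descriptions and were not tested.

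**Figure D3:**
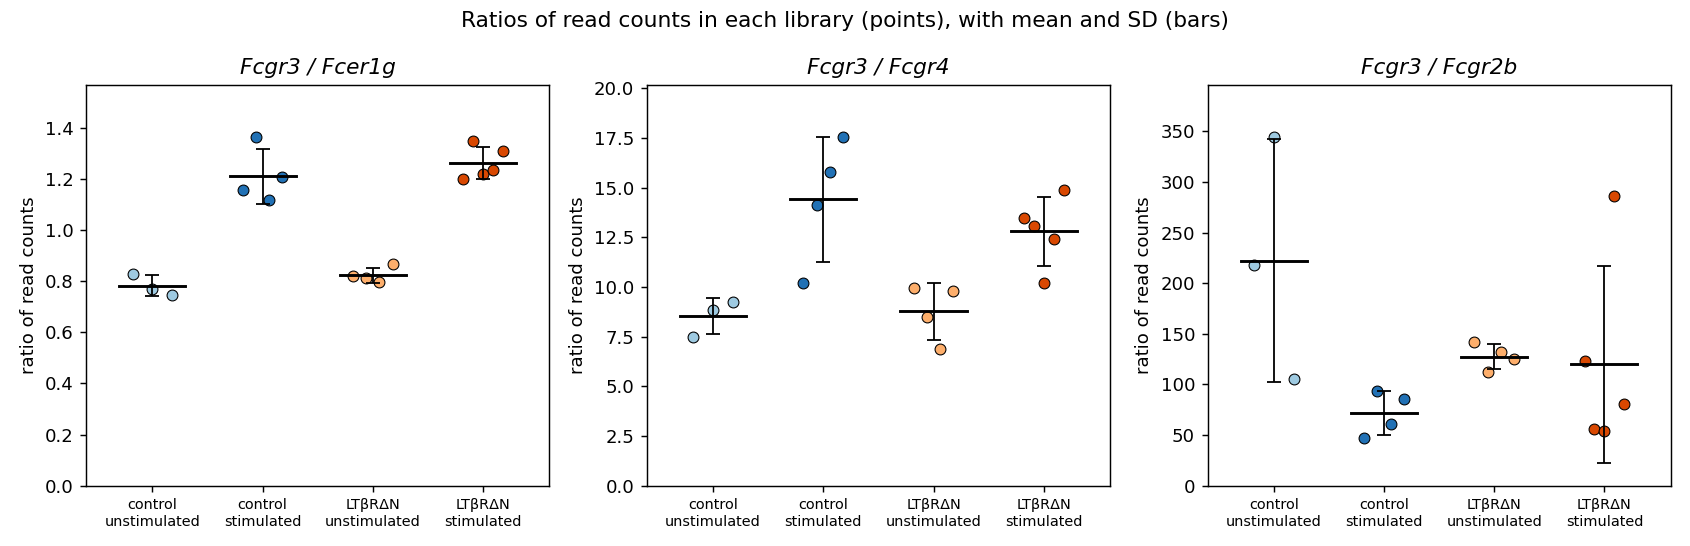
Ratio of Fcgr3 reads to Fcer1g, Fcgr4 and Fcgr2b reads (vertical axes, from 0) in each library (points) of the 4 groups, with mean (line) and SD (whiskers). The ratios to Fcer1g and Fcgr4 are higher in every stimulated library than in the unstimulated libraries of the same genotype, and the ratio to Fcgr2b is lower in stimulated controls and widely spread, from 53.9 to 286, in stimulated LTβRΔN neutrophils.

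Fcgr1, the high-affinity IgG receptor, was close to the limit of detection. It was counted in 3 libraries, all LTβRΔN: 7 reads (1.08 CPM) in library 67, 3 reads (1.87 CPM) in library 75 and 12 reads (4.65 CPM) in library 79. The other 6 LTβRΔN libraries and all 7 control libraries held 0 reads. A count of 0 allows up to 3 reads, or 0.228 to 2.40 CPM depending on the depth of the library, for counting error only. Of the control libraries, all 7 had a limit of 0.711 CPM or lower, under the level in each of the 3 libraries. The gene did not pass the filter on low counts. In a fit without that filter, its adjusted p in edgeR was 1.0 between genotypes in unstimulated and 0.586 in stimulated neutrophils, so no difference was called.

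Monocytes and macrophages are known for Fcgr1, and their markers are given beside it. The summed level of the marker list was 459, 419 and 364 CPM in libraries 67, 75 and 79, within the range of all 16 libraries (341 to 561 CPM). Of its genes, C1qa was at 0 in all 16 libraries. Ccr2 was counted in library 67 only (9 reads, 1.39 CPM). Csf1r and Ly6c2 were counted in all 16 libraries and made up most of the sum, so the sum could hardly show a few other cells. Libraries 67 and 75 carry the same number in the column names of the count table, and no label says what that number marks. The part of other cells in the Fcgr1 reads was not tested.

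Fcgrt was listed at 0 in all 16 libraries, among 98029304 counts, as were 10472 genes of the table. Its partner B2m, which encodes β2-microglobulin and is also needed by MHC class I, stood between 1436 and 1806 CPM in all libraries. An annotated antisense transcript, Gm45669, overlaps Fcgrt and Gm38204 overlaps Fcgr2b, and neither symbol is in the table. Whether reads were counted by strand is not given in the sources used here.

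Deletion of Ltbr was compared with control under each label. Of the 4 tested genes, 0 were called in unstimulated neutrophils, where 0.0217% of all genes tested were called, and 0 in stimulated neutrophils, again against 0.0217%. At an unadjusted p under 0.05 in edgeR, 0 of 4 stood out in either comparison, and DESeq2 called 0 in both. The log2 difference of LTβRΔN from control in unstimulated neutrophils was 0.13 for Fcgr3 (95% interval -0.09 to 0.35), 0.60 for Fcgr2b (-0.39 to 1.59), 0.10 for Fcgr4 (-0.28 to 0.48) and 0.05 for Fcer1g (-0.17 to 0.28). In stimulated neutrophils it was 0.04 for Fcgr3 (-0.16 to 0.23), -0.28 for Fcgr2b (-1.11 to 0.56), 0.17 for Fcgr4 (-0.17 to 0.51) and -0.03 for Fcer1g (-0.22 to 0.17). For Fcgr3 and Fcer1g these intervals ran from 0.857-fold to 1.27-fold. For Fcgr2b they reach 3.02-fold higher in unstimulated and 0.463-fold in stimulated LTβRΔN neutrophils, so differences up to these sizes lie within the intervals. All 4 unstimulated LTβRΔN libraries were S520, whereas library 73 of the unstimulated controls was S521. Without library 73, and with the index as a covariate, the log2 difference of Fcgr2b in unstimulated neutrophils was 1.17. Over the 24 alternatives it ran from 0.27 to 1.17 and was not called in any.

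Whether the treatment comparison differed between genotypes was tested as an interaction. Of the 4 tested genes, 0 were called, against 0.0% of all genes tested, and 0 had an unadjusted p under 0.05 in edgeR. DESeq2 called 0 as well. The interaction of Fcgr2b, passed in controls and not in LTβRΔN neutrophils, was -0.88 on the log2 scale (SE 0.62, 95% interval -2.17 to 0.41, adjusted p = 0.9999 in edgeR), so the treatment comparisons were not shown to differ. For Fcgr3 it was -0.09 (SE 0.14, interval -0.39 to 0.20). Over the 24 alternatives the interaction of Fcgr2b ran from -1.45 to -0.54 and was not called in any.

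The genes around the receptors were taken from lists of their adaptors, signalling partners and engulfment machinery. These lists were chosen with earlier results of these data known, so their counts beside the share over all genes are descriptions. Of 18 genes for ITAM adaptors and the receptors that use them, 13 were tested. In controls 3 were called higher and 1 lower, and in LTβRΔN neutrophils 3 higher and 2 lower, where 3.48% and 3.73% of all genes tested were called (2.82% and 2.98% higher). The genes called higher were the same in both genotypes: the C-type lectin receptors Clec4e (Mincle) and Clec4n (Dectin-2), which signal through the γ chain, and Clec5a, which signals through the adaptor DAP12. Clec4e rose from 1312 ± 229 to 2647 ± 90.5 CPM in controls (log2 fold change 1.01, adjusted p = 2.22e-05 in edgeR) and from 1297 ± 224 to 2592 ± 225 in LTβRΔN neutrophils (0.997, adjusted p = 3.81e-06). Clec4n rose by 1.47 (adjusted p = 0.000106 in edgeR) and 1.20 (adjusted p = 0.000246) on the log2 scale, and Clec5a by 1.17 (adjusted p = 0.00216) and 1.005 (adjusted p = 0.00297). With the index as a covariate Clec4e and Clec4n kept their calls in controls, whereas Clec5a in controls and all 3 in LTβRΔN neutrophils lost theirs. Over the 25 alternatives the log2 fold change of Clec5a in controls was at least 0.93, and in LTβRΔN neutrophils those of Clec4e, Clec4n and Clec5a were at least 0.63, 1.02 and 0.83.

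Called lower were 2 receptors of the CD300 family. Cd300lb, which pairs with DAP12, fell from 1044 ± 25.0 to 698 ± 142 CPM in controls (log2 fold change -0.58, adjusted p = 0.0189 in edgeR) and from 1115 ± 114 to 722.4 ± 81.6 in LTβRΔN neutrophils (-0.62, adjusted p = 0.00288). In controls the call of Cd300lb was lost without library 71, 72, 73, 80 or 81, with the index as a covariate and in a fit of the compared groups alone, with adjusted p up to 0.378 and a log2 fold change of -0.83 to -0.46 over all alternatives. Cd300ld, which pairs with the γ chain, fell in LTβRΔN neutrophils (-0.38, adjusted p = 0.0229) and lost its call without library 68, 69, 70, 76 or 79 and in a fit of the compared groups alone. Both calls in LTβRΔN neutrophils were also lost with the index as a covariate, and over all alternatives the log2 fold change there was -0.81 to -0.56 for Cd300lb and -0.57 to -0.14 for Cd300ld. Tyrobp, which encodes DAP12, stood at 7407 ± 458 and 7324 ± 262 CPM in controls and at 8197 ± 647 and 7196 ± 1017 in LTβRΔN neutrophils, with adjusted p of 0.989 and 0.461 in edgeR.

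Downstream of the activating receptors, 35 of 40 listed genes were tested, and 1, Syk, was called in each genotype. That share is near the 3.48% and 3.73% called over all genes tested. Syk encodes the tyrosine kinase that binds the phosphorylated ITAM. It stood at 360, 314 and 322 CPM in unstimulated control libraries 71 to 73 and at 634, 425, 478 and 494 in stimulated control libraries 80 to 83, without overlap. The log2 fold change was 0.61 (SE 0.15, adjusted p = 0.0157 in edgeR) in controls and 0.63 (SE 0.13, adjusted p = 0.00386) in LTβRΔN neutrophils, where the means were 333 ± 41.9 and 514 ± 63.0 CPM. Both calls were lost with library totals alone and with the index as a covariate. The call in controls was also lost without library 72, 73 or 80 and in a fit of the compared groups alone. The highest adjusted p over all alternatives was 0.298 in controls and 0.710 in LTβRΔN neutrophils.

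On the inhibitory side, 17 of 21 listed receptors and phosphatases were tested, and 0 were called in controls, where 2 had an unadjusted p under 0.05 in edgeR. The shares called over all genes tested were 3.48% in controls and 3.73% in LTβRΔN neutrophils. Inpp5d encodes SHIP-1, the phosphatase that the ITIM of Fcgr2b recruits. It stood at 114 ± 8.80 and 116 ± 43.4 CPM in controls and at 112 ± 5.89 and 117 ± 16.2 in LTβRΔN neutrophils (adjusted p = 0.993 and 0.956 in edgeR). Ptpn6 encodes the phosphatase SHP-1. It stood at 1172 ± 97.8 and 991 ± 85.0 CPM in controls and at 1246 ± 138 and 1076 ± 91.2 in LTβRΔN neutrophils (adjusted p = 0.461 and 0.405). In LTβRΔN neutrophils 1 gene of the list was called, Ptpn11, which encodes SHP-2. It rose from 2.96 ± 2.88 to 14.1 ± 2.27 CPM (log2 fold change 2.47, adjusted p = 0.0120 in edgeR), and its call was lost without library 67, 69 or 70 and with the index as a covariate (adjusted p up to 0.645). The log2 fold change of Ptpn11 in controls was 0.39 (adjusted p = 0.933 in edgeR). Its interaction was 2.08 on the log2 scale (adjusted p = 0.9999 in edgeR), so the genotypes were not shown to differ.

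Of 25 genes for engulfment and the actin cytoskeleton, all 25 were tested. In controls 0 were called, against 3.48% of all genes tested, with 4 at an unadjusted p under 0.05 in edgeR. In LTβRΔN neutrophils, where 3.73% of all genes tested were called, 1 of the 25 was called, Arpc1b, a subunit of the Arp2/3 complex. It fell from 2669 ± 292 to 2145 ± 59.0 CPM (log2 fold change -0.32, adjusted p = 0.0488), and the call was lost under 20 of 25 alternatives, among them the omission of all libraries but 67 in turn. Of 17 other Fc receptor and Fc-binding genes, 3 were tested (B2m, Fcrl1 and Trim21), and 0 were called in either genotype by edgeR, where 0 had an unadjusted p under 0.05. DESeq2 called 6 genes of all these lists in controls and 11 in LTβRΔN neutrophils, against 5 and 8 by edgeR. The share that DESeq2 called over all genes is not given here, so these numbers are descriptions. The median log2 fold change of the lists ran from -0.05 to 0.27 in controls and from -0.19 to 0.04 in LTβRΔN neutrophils, against -0.02 and -0.03 over all genes tested. In the genotype comparisons and in the interaction edgeR called 0 genes of the 5 lists, with at most 3 of a list at an unadjusted p under 0.05, and DESeq2 called 0.

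**Figure D4:**
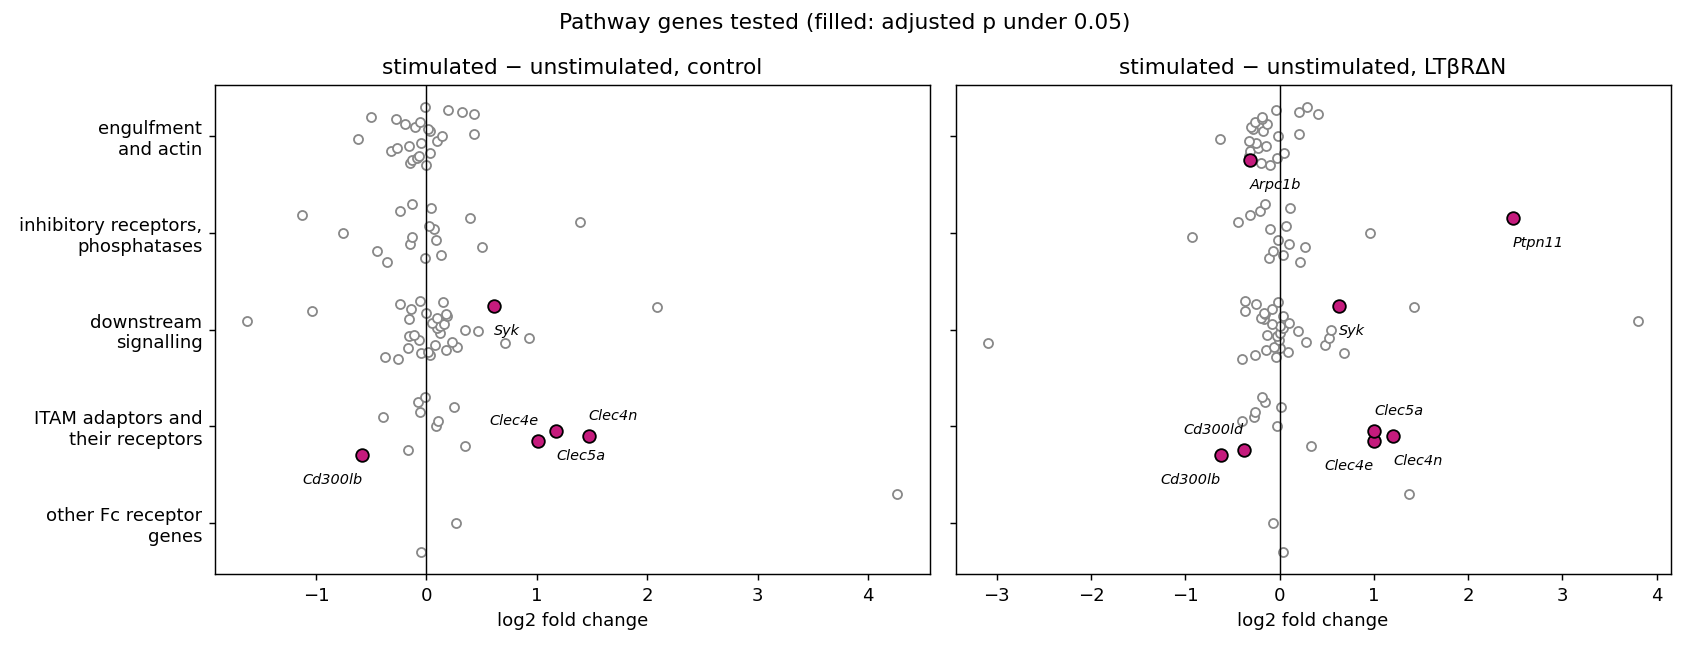
Log2 fold change between stimulated and unstimulated neutrophils (horizontal axis) of each tested gene of the 5 lists (rows) in controls and in LTβRΔN neutrophils; filled, named points passed an adjusted p of 0.05 in edgeR. The named points are Clec4e, Clec4n, Clec5a, Syk and Cd300lb in both panels, joined in LTβRΔN neutrophils by Cd300ld, Ptpn11 and Arpc1b.

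The genes whose levels followed each receptor most closely over the 16 libraries were found by the SD of the log2 ratio, over 4776 genes with at least 10 counts in every library. For Fcgr3 these were Rab20 (SD 0.14), Ltb (0.14) and Cd24a (0.15), against 0.33 for its adaptor Fcer1g and a median of 0.53. Ltb encodes lymphotoxin β, a subunit of a ligand of the LTβR, and Rab20 a small GTPase of the endosome. For Fcgr2b they were Slmo2 (0.48), Mapkapk2 (0.56) and Relb (0.58), against 0.81 for Fcgr3 and a median of 1.11. Relb encodes a subunit of the non-canonical NF-κB pathway and Mapkapk2 a kinase downstream of p38. For Fcgr4 they were Ccl6 (0.16), Gpx4 (0.17) and Cox8a (0.18), and for Fcer1g Prdx5, Fxyd5 and Myl6 (each 0.07). The receptors' own log2 CPM had an SD of 0.35 for Fcgr3, 1.03 for Fcgr2b, 0.23 for Fcgr4 and 0.10 for Fcer1g. A small SD of the ratio is therefore also reached where both genes varied little, as for Fcer1g and Fcgr4. The libraries share their groups and their index, so these values are descriptions over 16 points that are not independent of the treatment label.

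Promoters were searched for 3 motifs on both strands, in the 250 bases before each RefSeq start on GRCm38.p6. PU.1, a factor of the myeloid lineage, was searched as GAGGAA, the interferon-γ-activated site (GAS) as TTCNNNGAA, and the NF-κB site by its consensus of 10 letters. Of 32851 mouse promoters, 23.3% held the PU.1 letters, 7.02% the GAS letters and 3.90% the κB consensus. Fcgr3 and Fcgr4 each held a κB match and a PU.1 match. Fcgr1 held a GAS and a PU.1 match, and Fcgr2b, Fcer1g and Fcgrt held none of the 3, and no 2 matches overlapped. In Fcgr2b, 187 of the 250 bases searched lie in an annotated exon of the gene, against 0 to 29 bases in the other 5 genes. For Fcgr2b the search thus covered mostly exon sequence. The annotation of Fcgr2b (from chr1:170976547) and of Fcgr3 (from chr1:171064935) begins upstream of the bases searched (from chr1:170976321 and chr1:171059653, minus strand). For both genes the sequence before that annotated beginning was not searched. The κB matches, in capitals below, began 152 bases before the start (the upstream one of 2 for Fcgr3) in both Fcgr3, which rose, and Fcgr4, which did not pass the test (chr1:171059536-171059565, minus strand, and chr1:171018764-171018793, plus strand).
Fcgr3: acagtagcttGGGGTTTTCCccaagggtac
Fcgr4: atgttttcctGGGGCTCTCCctcctgtccc

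Over 25 alternatives of processing, Fcgr3 kept its call in controls in 25 (log2 fold change 0.47 to 0.75) and in LTβRΔN neutrophils in 24 (0.44 to 0.67). Of the 25 alternatives, 16 left out 1 library each. Libraries of the other genotype enter a fold change only through scaling and the shared spread, so leaving them out could hardly move it.

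**Figure D5:**
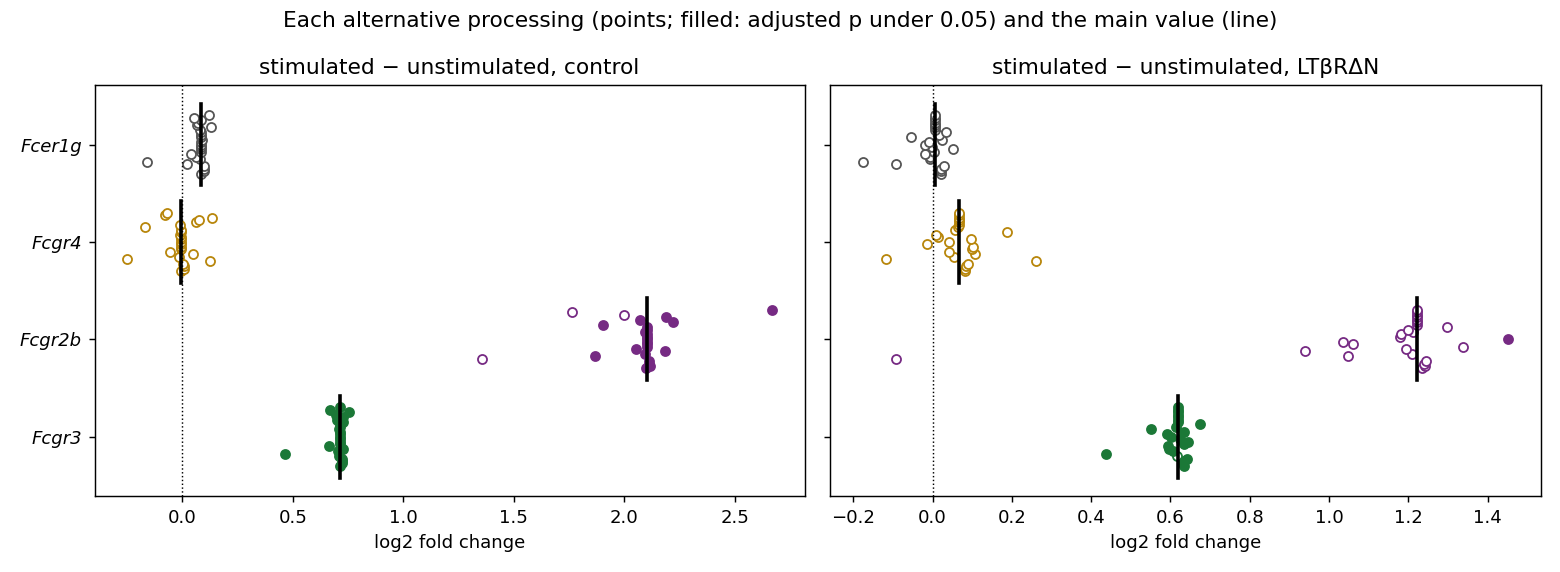
Log2 fold change between stimulated and unstimulated neutrophils (horizontal axes) of the 4 tested genes (rows) under each alternative of processing (points; filled points passed an adjusted p of 0.05), with the reported value as a line. Fcgr3 stays filled in all alternatives but 1, in LTβRΔN neutrophils, and Fcgr2b spans 1.36 to 2.67 in controls and -0.09 to 1.45 in LTβRΔN neutrophils.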

How the data were processed

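Deposited values were raw read counts per gene for 16 libraries, 1 column each, sequenced single-end on an Illumina HiSeq instrument. The submitters' processing notes name Bowtie 1.0.0, TopHat 1.4.1, HTSeq 0.7.1 and build mm10. Read length and counting options are not given in the sources used here. Totals ranged from 1094335 to 11932653 counts per library, which sets the limits given for genes at 0. Pairs of libraries of a group differed beyond counting noise (chi-square per degree of freedom 7.12 to 50.4 over 25 pairs), so none was treated as a library deposited more than once. This does not show that they came from separate mice.

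The authors' counts were filtered (filterByExpr, minimum 10 per library and 15 in total) and scaled by trimmed mean of M values (TMM). They were tested with edgeR 4.0.16 (quasi-likelihood, 1 coefficient per group, all 16 libraries, R 4.3.3), with Benjamini-Hochberg adjustment over all 9213 genes at a threshold of 0.05. Intervals of 95% use the fit's SE. CPM are TMM-scaled counts per 1000000, and levels per kilobase use the union of annotated exons. Exact permutation tests (scipy 1.17.1) compared mean CPM, unadjusted. The procedure was tested on simulated counts. The alternatives were other scalings, other filters, DESeq2 1.42.0, a fit of the compared groups alone, the library index as a covariate, a replicate block and the omission of each library.

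Named genes were the 6 members, Ltbr, direct partners (B2m, Tyrobp, Syk, Inpp5d, Ptpn6), up to 6 genes per list and direction past the threshold, and the 3 genes most like each tested member. Other genes named (Fcrl1, Trim21 and cell type markers) are members of the lists. The members and lists were chosen with earlier results of these data known. Some marker genes are not reported here.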

Additional observations from a re-analysis of the deposited data

Results flagged for a closer look

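Among 32 groups of values of 4 or 5 libraries that were examined for a library far from the others, 2 held one. A rate of 1 in 20 would give about 1.6, but that rate does not apply where all other libraries stood at 0, as for Fcgr1. Fcgr1 in unstimulated LTβRΔN neutrophils stood at 1.08 CPM in library 67 (7 reads) and at 0 in the other 3 libraries. The ratio of Fcgr4 to Fcgr2b reads in stimulated LTβRΔN neutrophils stood at 23.1 in library 78 and between 4.30 and 9.15 in the other 4 libraries. In library 78 Fcgr2b was counted 17 times (7.63 CPM) among 2408608 counts, while Fcgr3 (2182 CPM) and Fcgr4 (176 CPM) were within the range of their group.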

How the results depend on the processing

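Under all 25 alternatives, of which 16 left out 1 library each, Fcgr3 kept its direction in both genotypes. Its log2 fold change was 0.47 to 0.75 in controls and 0.44 to 0.67 in LTβRΔN neutrophils. With the library index as a covariate, 1 member was called in controls and 0 in LTβRΔN neutrophils, 2 and 0 genes of the pathway lists, and 157 and 79 genes of all tested, with 1 in the interaction. Fcgr2b in LTβRΔN neutrophils then stood at -0.092. That fit rests on 2 S520 and 1 S521 library of unstimulated controls. With library totals alone, 13 and 22 genes of the pathway lists were called, against 5 and 8. Under that scaling the log2 fold change of Fcer1g was -0.16 and -0.18, of Fcgr4 in LTβRΔN neutrophils -0.12, of B2m there -0.14, and of Inpp5d -0.22 and -0.12, and the genotype difference of Fcer1g in unstimulated neutrophils was -0.0004271. On that scaling the difference in level was -185.0 and -201 CPM for Fcer1g, -12.7 for Fcgr4 in LTβRΔN neutrophils, and -0.905 for Fcer1g between genotypes. A fit of the compared groups alone called 3 pathway genes in controls.

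Directions of genes that did not pass the test also turned elsewhere. Fcgr4 in controls stood at 0.0063 with DESeq2's size factors, 0.0061 with DESeq2's test, 0.0052 with at least 10 counts in every library and 0.13 with the index. Fcer1g in LTβRΔN neutrophils stood at -0.019 with upper-quartile scaling, -0.0065 with no filter on low counts and -0.093 with the index, and at 0.0018 between genotypes in stimulated neutrophils with upper-quartile scaling. Tyrobp in controls stood at 0.091 with the index, and Inpp5d there at -0.026 with upper-quartile scaling. Between genotypes, all tested genes called in unstimulated neutrophils numbered 4 with no filter, 1 with at least 10 counts in every library and 4 with DESeq2. In stimulated neutrophils they numbered 1 and 14 with the last 2 of these.

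With each library left out in turn, 1 to 2 members and 3 to 6 pathway genes were called in controls, and 1 to 2 members and 5 to 8 pathway genes in LTβRΔN neutrophils. All genes called ran from 2 to 6 between genotypes in unstimulated neutrophils and from 0 to 2 in the interaction. Left-out libraries also turned the direction of genes that did not pass. Fcgr4 ran from -0.17 to 0.14 in controls, -0.014 to 0.19 in LTβRΔN neutrophils, -0.025 to 0.24 between genotypes in unstimulated neutrophils and -0.070 to 0.23 in the interaction. Fcer1g ran from -0.055 to 0.053 in LTβRΔN neutrophils and -0.072 to 0.020 between genotypes in stimulated neutrophils. In controls B2m ran from -0.080 to 0.0011, Tyrobp from -0.067 to 0.012 and Inpp5d from -0.21 to 0.18. In LTβRΔN neutrophils B2m ran from -0.0020 to 0.072 and Inpp5d from -0.016 to 0.12.

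The number in the column names was not taken to pair the libraries, since no label says what it marks: deviations from the group means correlated at 0.0214 to 0.0694 over 7 pairs, and in 6 of them a library correlated best with its own number, a hint from the data and not from the design. With that number as a replicate block, 2 members were called in controls and 1 in LTβRΔN neutrophils, with 324 and 343 genes of all tested. Fcgr4 in controls stood at 0.049 and Fcer1g in LTβRΔN neutrophils at -0.0071 under the block. The block cannot be fitted between genotypes, which hold no number in common. Depth sets the limit for genes at 0: a count of 0 allows 0.228 CPM in the deepest and 2.40 CPM in the shallowest library. The cause of these changes was not tested.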
